A study of Mus musculus with 10 samples.

Results

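Npy, the gene of neuropeptide Y, and the genes of 3 of its receptors, Npy1r, Npy2r and Npy5r, were followed in RNA from the cerebral cortex of BrapcKO and control mice. The 4 genes were selected by symbol from the 14276 genes of the count table, with results of these same libraries in view. Their selection rested on the measured difference between BrapcKO and control, so that difference is given for them as a description, with no test. All 4 genes are in the table, and none was lost to a filter on low values.

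The study sequenced ribosomal RNA-depleted total RNA from frozen cortex of C57BL/6 mice aged 3 months, in 10 libraries. Brap encodes a ubiquitin ligase that binds BRCA1 and restrains Ras to MAP kinase signalling. The 5 controls carried no Cre recombinase: libraries 08, 22 and 23 were flox/wt Cre- at Brap, and libraries 09 and 24 were flox/flox Cre-. The 5 BrapcKO libraries all carried Cre: 04, 07 and 21 were flox/ko Cre+, and 05 and 06 were flox/flox Cre+. Both groups thus carry at least 1 floxed allele, and the presence of Cre and the loss of Brap cannot be told apart. The promoter driving Cre and the exons it removes are stated in none of the sources used. Nothing in the labels states outright that the libraries come from 10 different animals, so p-values below measure library-to-library spread, which may include a technical part.

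Total counts were 17188901 to 28991874 per library. Brap RNA, as a check of the labels, stood at 88.4 ± 8.58 CPM (reads scaled to the library total) in controls and 104 ± 9.15 CPM in libraries labelled BrapcKO (SD, n = 5 each; edgeR adjusted p = 0.18). It was no lower there, so directions below rest on the labels. Titles also carry a code, B1 for controls 08 and 09 and BrapcKO 04 to 07, and B2 for controls 22 to 24 and BrapcKO 21, whose meaning the labels do not state. A Y-linked gene, Ddx3y, was high in 1 control (23) and in 4 BrapcKO libraries (05, 06, 07 and 21), with 115 to 148 CPM, whereas the others had at most 0.052 CPM, so the sexes were uneven between groups. Fitted with title code and group, the quasi-likelihood test of edgeR called 1152 genes (446 higher and 706 lower in BrapcKO) at an adjusted p under 0.05. The median log2 difference over all genes was 0.01, and its median absolute size was 0.15.

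Neuropeptide Y is a peptide transmitter that is cut from a longer precursor and released from dense-core vesicles. In cortex it is made mainly by sets of GABA interneurons, among them somatostatin cells that also make nitric oxide synthase and neurogliaform cells. Its receptors couple to the inhibitory G proteins Gi and Go: they lower cyclic AMP, open potassium channels of the GIRK class and close presynaptic calcium channels. The Y1 receptor (Npy1r) is known mostly from cell bodies and dendrites, the Y2 receptor (Npy2r) mostly from axon terminals, where it restrains release, and the Y5 receptor (Npy5r) is often found in the same cells as Y1. The peptide is known for limiting seizures and anxiety in forebrain and for driving feeding in hypothalamus, and Npy RNA is raised by sustained neuronal activity.

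In GRCm38, Npy (ENSMUSG00000029819.6) lies on chromosome 6 from 49822710 to 49829507 on the plus strand. Npy1r (ENSMUSG00000036437.6) and Npy5r (ENSMUSG00000044014.9) lie head to head on chromosome 8, Npy1r from 66697192 to 66706792 on the plus strand and Npy5r from 66679965 to 66688128 on the minus strand, with 9064 bases between the gene ends. Npy2r (ENSMUSG00000028004.12) lies on chromosome 3 from 82538383 to 82548084 on the minus strand. No other annotated gene of GENCODE M21 overlaps any of the 4, so their reads are not shared with an overlapping or antisense gene of that annotation.

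The promoters of Npy and Npy1r are shown because these are the members whose groups stood apart, in opposite directions, and because the text below gives AP-1 genes of the same libraries. Sequences come from the RefSeq promoter table of GRCm38.p6, which held all 4 genes, and are written 5′ to 3′ on the strand of the gene. For Npy the 250 bases before the start, chr6:49822460-49822709, are printed with the GC box GGGCGG in capitals, and for Npy1r a stretch of 27 bases, chr8:66697181-66697207, is printed with the match to the AP-1 motif TGANTCA in capitals.
Npy promoter: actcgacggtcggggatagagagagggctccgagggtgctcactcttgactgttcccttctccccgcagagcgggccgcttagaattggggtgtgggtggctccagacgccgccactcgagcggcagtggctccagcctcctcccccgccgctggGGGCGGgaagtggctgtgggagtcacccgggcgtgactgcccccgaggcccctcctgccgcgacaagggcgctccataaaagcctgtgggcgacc
Npy1r stretch before the RefSeq start: gcgccttgctTGAGTCAaggactagtg
The Npy window held 69.2% G and C, against a median of 52.0% over 27025 promoters, and its GC box starts 95 bases before the transcript start. The AP-1 match of Npy1r starts 231 bases before the RefSeq start. GENCODE starts the Npy1r gene upstream of that RefSeq start: of the 250 bases of the window, 230 lie within its gene, as do 16 of the 27 printed bases and 6 of the 7 bases of the AP-1 match.

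Both strands of the 250-base windows of the 4 genes were searched for 8 motifs. The GC box GGGCGG, found in 32.9% of all promoters, occurred once in Npy and once in Npy2r, where it starts 62 bases before the start. The AP-1 motif TGANTCA, found in 6.87% of promoters, occurred only in Npy1r among the 4 windows. The E-box CACGTG (6.05% of promoters) occurred once in Npy5r, 40 bases before its start. The other motifs had no match in any of the 4 windows: the cyclic AMP response element TGACGTCA (1.62% of promoters), its shorter form TGACG (17.9%, contained in the full element), the NR4A motif AAAGGTCA (1.31%), the EGR motif GCGTGGGCG (0.54%) and the TATA box TATAAA (13%). A match says only that these letters stand in the window.

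Npy, the ligand, was higher in every BrapcKO library than in any control. It stood at 38.7, 38.8, 45.3, 43.2 and 55.3 CPM in controls 08, 09, 22, 23 and 24, which rest on 754 to 1434 reads. In BrapcKO 04, 05, 06, 07 and 21 it stood at 80.7, 67.5, 216, 147 and 176 CPM, on 1201 to 4967 reads. The controls lie close together, whereas the BrapcKO libraries split into a lower pair (04 and 05) and a higher trio (06, 07 and 21), and the lowest BrapcKO library still lies above the highest control. Means were 44.2 ± 6.78 CPM in controls and 137 ± 63 CPM in BrapcKO (SD, n = 5 each). Fitted with title code, the log2 difference was 1.78 (SE 0.31, 95% interval 1.08 to 2.48), a 3.43-fold higher level. Of all genes measured, 0.476% had a larger absolute log2 difference than Npy.

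Npy1r, the Y1 receptor, was the mirror case, with values that hardly varied inside each group. Controls 08, 09, 22, 23 and 24 stood at 38.6, 31.6, 35, 34.7 and 33.8 CPM, and BrapcKO 04, 05, 06, 07 and 21 at 17, 15.7, 17, 18.4 and 16.7 CPM. All 5 BrapcKO libraries lie below all 5 controls, with a wide gap between 18.4 and 31.6 CPM. Mean levels were 34.7 ± 2.51 CPM (controls) and 16.9 ± 0.968 CPM (BrapcKO; SD, n = 5 each), from 615 to 1010 reads in controls and 279 to 471 in BrapcKO. The log2 difference was -1.05 (SE 0.09, 95% interval -1.24 to -0.85), so the BrapcKO level was 0.484 of the control level, and 2.42% of all genes had a larger absolute difference. In bulk tissue, fewer cells of a type and less RNA per cell cannot be told apart.

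Npy2r, the Y2 receptor, overlapped between the groups. It stood at 13.4, 13.4, 21, 18.5 and 23.5 CPM in controls 08, 09, 22, 23 and 24, and at 22.1, 17.1, 10.2, 21.1 and 16.8 CPM in BrapcKO 04, 05, 06, 07 and 21. The lowest of the 10 libraries was BrapcKO 06, the one with the most Npy, and the 2 lowest controls were both B1. The log2 difference was 0.13 (SE 0.22), with a 95% interval from -0.35 to 0.61 that holds differences in both directions.

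Npy5r, the Y5 receptor, was the scarcest of the 4. Controls 08, 09, 22, 23 and 24 stood at 6.82, 7.31, 7.07, 6.39 and 6.82 CPM, and BrapcKO 04, 05, 06, 07 and 21 at 5.96, 5.79, 6.71, 6.7 and 5.35 CPM. The groups overlap, because control 23 lies below BrapcKO 06 and 07. The log2 difference was -0.23 (SE 0.12, 95% interval -0.50 to 0.04). That interval does not hold the size of the Npy1r difference, although the genes are neighbours.

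Of the 4 genes, 2 (Npy and Npy1r) lay past the threshold of the edgeR test and had groups that did not overlap. Among all genes tested, 8.07% were called (3.12% higher and 4.95% lower), and in 6.82% the groups were apart. Since the genes were selected on this contrast, nothing is read from the count.

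**Figure D1:**
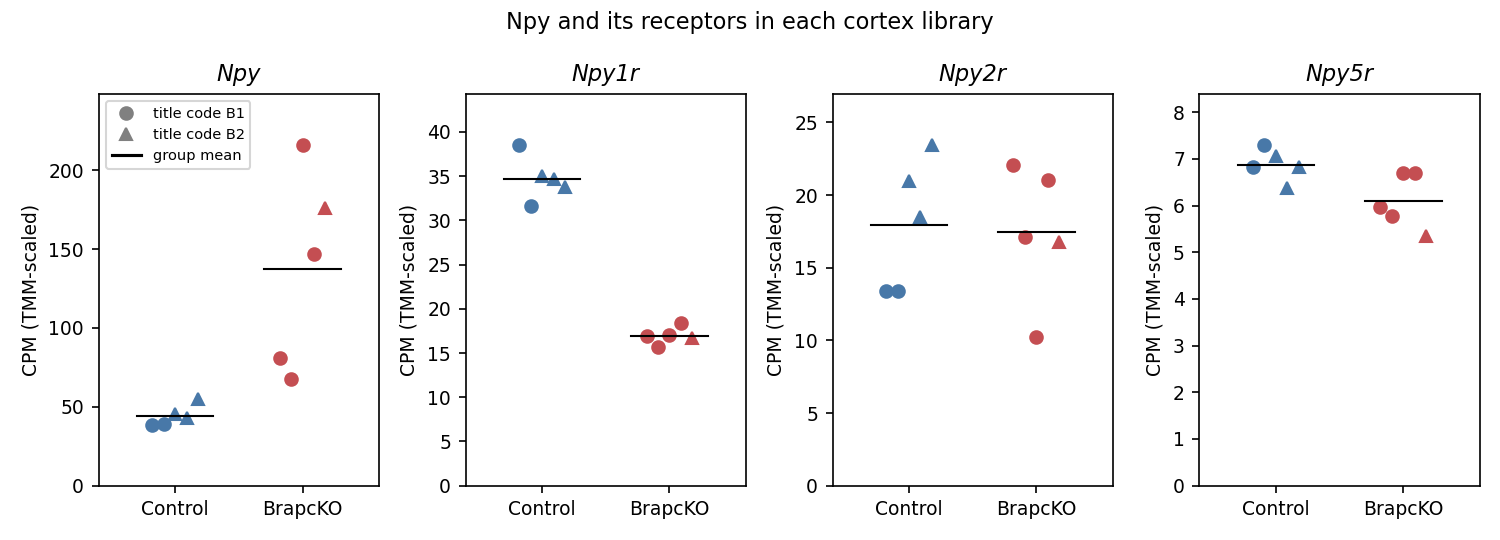
Level of Npy, Npy1r, Npy2r and Npy5r in each library (CPM, 1 panel per gene, axes from 0), with controls and BrapcKO libraries side by side; points are libraries (circles B1, triangles B2) and the line is the group mean (n = 5 each). The groups are apart for Npy (38.7 to 55.3 against 67.5 to 216 CPM) and Npy1r (31.6 to 38.6 against 15.7 to 18.4 CPM) and overlap for Npy2r and Npy5r.

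The spread inside the groups differed between the genes. For Npy the coefficient of variation (SD over mean) was 15.3% in controls and 45.9% in BrapcKO, where 91.3% of all genes varied less. For Npy1r it was 7.22% and 5.71%, with only 13% and 7.94% of genes varying less. Npy2r varied by 25% and 26.8%, and Npy5r by 4.96% and 9.72%, against a median over genes of 15.1% in controls and 14.9% in BrapcKO. The larger spread of Npy in BrapcKO than in control was not tested.

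The contrasts that played no part in the selection can be tested, and none of them moved a member past the threshold. Between B2 and B1, with group as a term, edgeR called 25.1% of all genes and 0 of the 4. The log2 differences (B2 minus B1) were 0.37 for Npy (SE 0.31, 95% interval -0.33 to 1.07, adjusted p = 0.44) and -0.03 for Npy1r (SE 0.09, interval -0.22 to 0.17, adjusted p = 0.86). For Npy2r the difference was 0.36 (SE 0.22, interval -0.12 to 0.85, adjusted p = 0.27), and for Npy5r it was -0.13 (SE 0.13, interval -0.40 to 0.14, adjusted p = 0.49).

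Genotypes inside a group were compared as well. Among Cre+ libraries, flox/ko (n = 3) minus flox/flox (n = 2) gave log2 differences of -0.26 for Npy (SE 0.47, edgeR adjusted p = 0.98), 0.10 for Npy1r (SE 0.12, 0.96), 0.47 for Npy2r (SE 0.28, 0.86) and -0.02 for Npy5r (SE 0.18, adjusted p = 1). Among Cre- libraries, flox/wt (n = 3) minus flox/flox (n = 2) gave -0.20 for Npy (SE 0.46, edgeR adjusted p = 0.92), 0.15 for Npy1r (SE 0.11, 0.74), -0.10 for Npy2r (SE 0.26, 0.92) and -0.04 for Npy5r (SE 0.17, adjusted p = 0.96). These contrasts called 0% of genes each: edgeR gave 0 at an adjusted p under 0.05, with 960 and 1012 genes at an unadjusted p under 0.05, and limma-voom gave 0 and 0. The interval for Npy among Cre+ libraries ran from -1.35 to 0.84, so a sizeable difference between the 2 knockout genotypes lies inside it. For Npy1r the interval was narrower, -0.16 to 0.37, and did not reach the size of its group difference.

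Because title code and sex were uneven, the members were also set side by side within each. Inside B2, Npy stood at 43.2 to 55.3 CPM in the 3 controls and 176 CPM in BrapcKO 21, and Npy1r at 33.8 to 35 against 16.7 CPM. Inside B1, fitted alone, the log2 differences were 1.72 for Npy, -1.05 for Npy1r, 0.39 for Npy2r and -0.17 for Npy5r. Among libraries with low Ddx3y, Npy stood at 38.7 to 55.3 CPM in 4 controls and 80.7 CPM in BrapcKO 04, and Npy1r at 31.6 to 38.6 against 17 CPM. Among those with high Ddx3y, control 23 had 43.2 CPM of Npy against 67.5 to 216 CPM in 4 BrapcKO libraries, and 34.7 CPM of Npy1r against 15.7 to 18.4. Npy thus stood higher and Npy1r lower in BrapcKO within each title code and on each side of the Ddx3y split, although 3 of these 4 comparisons have a single library in one arm. Since the groups do not overlap for either gene, any split of these libraries had to give this order. The split is therefore no check on title code or sex, whose part was not tested.

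With the Y-linked score as a further term the log2 differences were 1.56 for Npy, -1.05 for Npy1r, 0.38 for Npy2r and -0.22 for Npy5r. In that fit, in B1 alone and without BrapcKO 21, Npy1r was the 1 member past the threshold, and with the flox/flox libraries alone (2 against 2) none was. In the other 15 alternatives both Npy and Npy1r were past it. All of these fits reuse the contrast and libraries the members were selected on, so these counts are a description and no test. Leaving out each library in turn gave 1.56 (without BrapcKO 06) to 1.92 (without BrapcKO 05) for Npy and -1.12 to -0.97 for Npy1r.

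**Figure D2:**
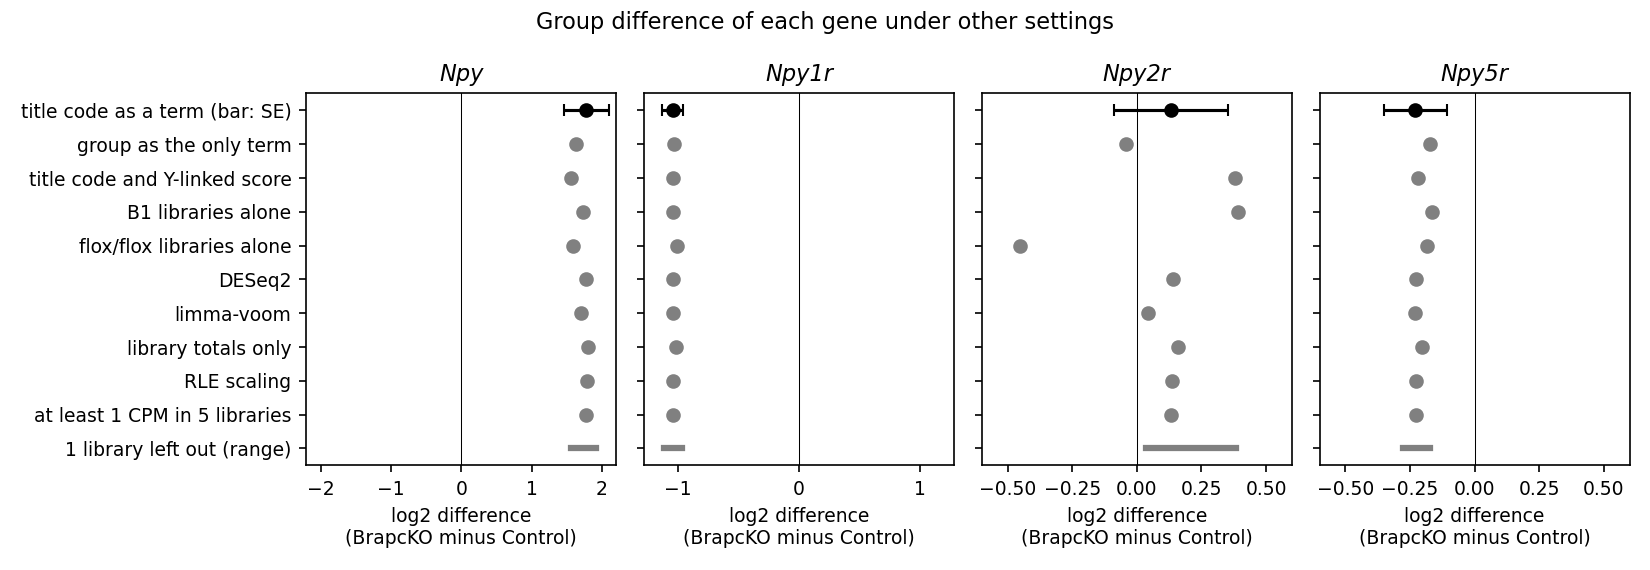
Log2 difference (BrapcKO minus control) of the 4 genes under the fit with title code (black, bar: SE) and 19 alternatives (grey points, with the fits without 1 library drawn as a range); the vertical line marks no difference and each panel has its own scale. Npy stays between 1.56 and 1.92 and Npy1r between -1.12 and -0.97, whereas Npy2r runs from -0.45 to 0.39 and Npy5r from -0.28 to -0.17.

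Levels of different genes were compared per kilobase of merged exon (CPM per kb). In controls the order was Npy at 78.2 ± 12, Npy1r at 10.05 ± 0.726, Npy2r at 5.31 ± 1.33 and Npy5r at 2.69 ± 0.134 CPM per kb (SD, n = 5), and no neighbours in this order overlapped. Npy lies at the 97.6th percentile of all genes on this scale in controls, Npy1r at the 66.9th, Npy2r at the 48.5th and Npy5r at the 32.6th. In BrapcKO, Npy stood at 243 ± 111 CPM per kb, and Npy1r at 4.90 ± 0.28 and Npy2r at 5.16 ± 1.38 overlapped. Npy5r was again last, at 2.39 ± 0.232 CPM per kb, below all libraries of the other receptors.

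The make-up of receptor RNA therefore differed. Npy1r formed 55.9 ± 4.64% of the summed receptor RNA per kb in controls (50.5 to 62.7%) and 39.7 ± 4.23% in BrapcKO (35.6 to 46.6%), with no overlap. Npy2r formed 29.1 ± 5.52% and 40.9 ± 7.21%, and Npy5r 15 ± 1.68% and 19.4 ± 3.16%. The 3 receptors summed to 16 to 19.4 CPM per kb in controls and 10.6 to 14.2 in BrapcKO. These shares follow from the Npy1r difference and are no separate evidence for it.

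The ratio of ligand RNA to Y1 receptor RNA joins both differences. Npy per Npy1r, both per kb, was 6.13, 7.48, 7.9, 7.6 and 9.98 in controls 08, 09, 22, 23 and 24, and 29, 26.3, 77.6, 48.7 and 64.4 in BrapcKO 04, 05, 06, 07 and 21. The lowest BrapcKO ratio lies well above the highest control ratio. Its mean was 7.82 ± 1.39 in controls and 49.2 ± 22.2 in BrapcKO (SD, n = 5 each). Since both genes were selected on this contrast and lie apart in opposite directions, their ratio had to separate and is no further evidence.

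**Figure D3:**
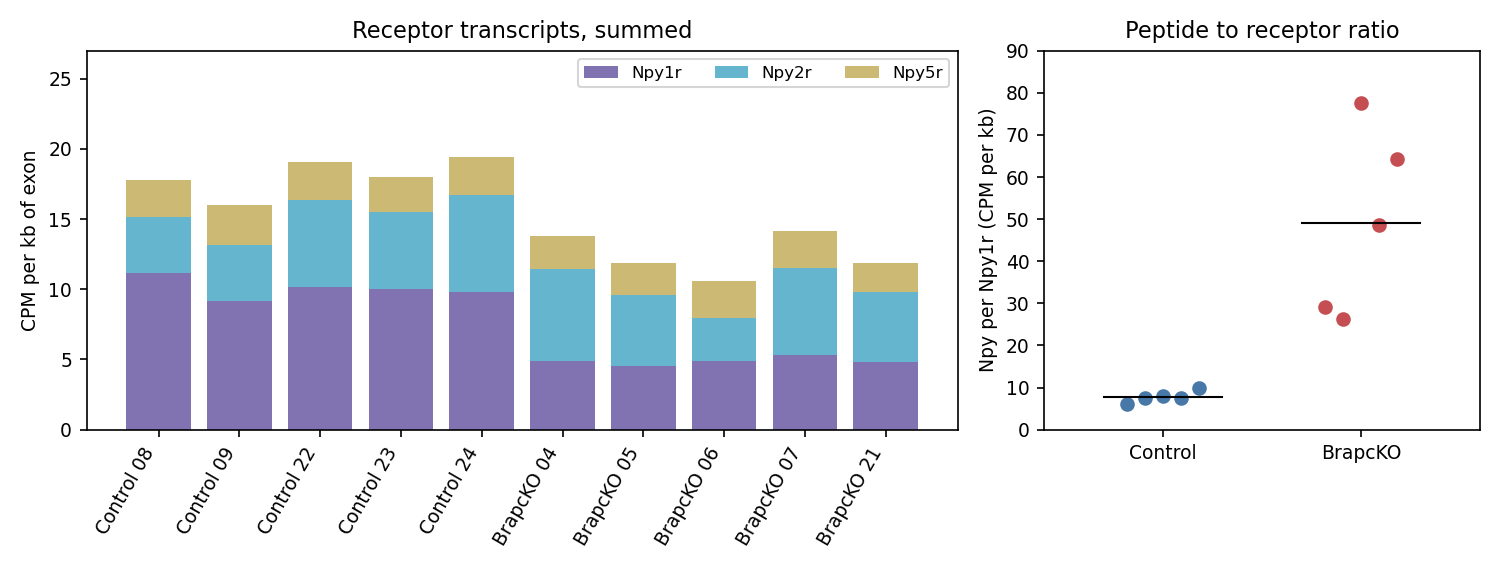
Receptor RNA per library (CPM per kb of exon, stacked bars from 0 for Npy1r, Npy2r and Npy5r) and, at the right, the ratio of Npy to Npy1r by group (linear axis from 0, points are libraries, lines are means). The Npy1r block is 9.16 to 11.2 CPM per kb in controls and 4.54 to 5.32 in BrapcKO, and the ratio is 6.13 to 9.98 in controls and 26.3 to 77.6 in BrapcKO.

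Whether the members vary together beyond group and title code was described over the 10 libraries, after both were removed from log2 CPM. Pearson's r was 0.334 for Npy with Npy1r, -0.567 for Npy with Npy2r and 0.649 for Npy with Npy5r (Spearman's rho 0.139, -0.321 and 0.685). Among the receptors r was 0.105 for Npy1r with Npy2r, 0.165 for Npy1r with Npy5r and -0.01 for Npy2r with Npy5r. All points share libraries, depth and scaling, and no p is given.

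On the same residual scale, the 3 genes most like Npy were Gnl1, Timm10 and Aldh1a3 (Pearson's r 0.987, 0.983 and 0.982), and those most like Npy1r were Ppp3cc, Insm1 and Sh3bgrl2 (0.926, 0.926 and 0.922). Those most like Npy2r were Nhsl2, Ngb and Acvr2b (0.987, 0.981 and 0.967), and those most like Npy5r were Cox6a2, Pars2 and Sf3b2 (0.96, 0.943 and 0.942). These are the highest values over 10 libraries among genes with a name; for Npy5r 1 predicted gene ranked above them. Ranked by Spearman's rho instead, 0 of 3 were shared for Npy, Npy1r and Npy5r and 2 of 3 for Npy2r, so the names are a description of these libraries and not a stable group.

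Genes lying near the members were looked at next. Within 500 kb of Npy, 5 genes were measured and 1 was called by edgeR: Ccdc126, 481128 bases away, rose from 11 ± 1.42 to 14 ± 1.78 CPM (log2 0.46, SE 0.11, adjusted p = 0.023). Around Npy1r the other genes within 500 kb, Naf1, Tma16 and March1, had log2 differences of -0.29, 0.25 and -0.27 (edgeR adjusted p = 0.16, 0.23 and 0.082). None of the 4 genes measured around Npy2r was called. The differences of Npy and Npy1r were therefore larger than that of every measured gene around them.

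The pathway was then followed through 4 lists holding 60 genes, which were drawn up with earlier results of these data known. For the genes named below, "rose" and "fell" refer to an edgeR adjusted p under 0.05 over all genes. By that test 8.07% of all genes were called (3.12% higher and 4.95% lower), the background of every list count below. No list was tested as a set.

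Of 15 genes of peptide maturation and dense-core vesicles, 1 rose and 3 fell, with a median log2 difference of 0.14. Pcsk1, a protease that cuts peptide precursors including that of neuropeptide Y, stood at 127, 138, 74.3, 88.7 and 63.4 CPM in controls 08, 09, 22, 23 and 24, and at 52.3, 57.7, 49.2, 42.7 and 49.1 CPM in BrapcKO 04, 05, 06, 07 and 21. The groups do not overlap, and Pcsk1 fell (log2 -1.11, SE 0.15, adjusted p = 0.0012). Pcsk2, the partner protease, fell from 509 ± 12.8 to 414 ± 34.2 CPM (-0.30, SE 0.08, 0.033), a call lost in 10 of 19 alternatives. Cadps2, which primes dense-core vesicles for release, fell from 189 ± 18.6 to 99.7 ± 10.8 CPM (-0.98, SE 0.09, 0.00013). Scg2, a granin stored in these vesicles, rose from 261 ± 56 to 471 ± 105 CPM (0.84, SE 0.20, 0.023).

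The enzymes that finish the peptide were not called: Cpe, which trims its end, differed by 0.29 (adjusted p = 0.11) and Pam, which amidates it, by 0.01 (0.96). Chga, the granin chromogranin A, was also not called (log2 0.85, SE 0.28, adjusted p = 0.11). It stood at 122 to 155 CPM in controls, at 131 and 134 CPM in BrapcKO 04 and 05, and at 323, 189 and 372 CPM in BrapcKO 06, 07 and 21. The 3 BrapcKO libraries with the most Npy were thus the 3 with the most Chga. The same libraries were also the highest of their group for Scg2, Vgf, Bdnf and the excitatory marker Slc17a7, though not for Chgb. The order is therefore not particular to Chga, and a link to Npy was not tested.

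Of the list of related peptides, other receptors and breakdown enzymes, Pyy, Ppy, Npy4r and Npy6r are not among the genes analysed here, and 4 of the 8 genes were measured. Of those, 0 rose and 2 fell (median log2 -0.73). Dpp4, a peptidase that clips neuropeptide Y into a form that no longer binds Y1, fell from 7.63 ± 3.1 to 4.87 ± 1.47 CPM (-1.03, SE 0.17, adjusted p = 0.0034), although its groups overlap and the call is lost with group as the only term (lowest size over the alternatives -0.42). Fap, a related peptidase, fell from 4.04 ± 1.05 to 1.97 ± 0.649 CPM (-1.24, SE 0.24, 0.0076), a call lost without control 08, whose level was 5.9 CPM. Mme, or neprilysin, and Anpep were not called (0.39 and -0.44, adjusted p = 0.19 and 0.26).

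Of 24 genes of receptor coupling, 1 rose and 5 fell (median log2 -0.07). The G protein subunits were not called, with Gnao1, the main Go subunit of brain, at -0.13 (adjusted p = 0.35). GIRK channel genes differed among themselves. In controls Kcnj3 ranged over 186 to 269 CPM, against 129 to 160 CPM in BrapcKO, and fell (-0.53, SE 0.10, adjusted p = 0.0055). Kcnj9 fell from 144 ± 18.9 to 88.3 ± 15 CPM (-0.73, SE 0.14, 0.0068). Kcnj6 was not called (-0.09, 0.58), with BrapcKO 21 apart from its group at 38.8 CPM. The B2 controls lay close to that library, at 33.9 to 40.1 CPM.

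The adenylyl cyclases, which Gi inhibits or modulates, moved in both directions. Adcy1 fell from 1548 ± 175 to 1076 ± 187 CPM (-0.66, SE 0.10, adjusted p = 0.0022). Adcy8, like Adcy1 stimulated by calcium, fell from 54.9 ± 6.27 to 31.6 ± 5.55 CPM (-0.91, SE 0.11, 0.00068), and Adcy2 fell by 0.41 on the log2 scale (0.029). The Adcy2 groups overlap, and its call was lost in 9 of 19 alternatives. Adcy5, the main cyclase of striatum, rose from 289 ± 55.8 to 372 ± 47.5 CPM (0.52, SE 0.11, 0.013). The summed levels of the 24 genes were 5216 to 5655 CPM in controls and 4606 to 5020 in BrapcKO. Adcy1 was by far the most abundant of them, so these sums largely follow its fall. They do not describe the list as a whole, whose median log2 difference was -0.07.

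Of 13 genes known to act on Npy transcription, 0 rose and 4 fell (median log2 -0.16). Fos, an AP-1 factor induced by activity, stood at 92.4, 50.3, 74.6, 104 and 63.9 CPM in controls 08, 09, 22, 23 and 24, and at 20.8, 16.7, 11, 15.4 and 11.1 CPM in BrapcKO 04, 05, 06, 07 and 21. The groups are far apart, and Fos fell (-2.40, SE 0.26, adjusted p = 0.00052). Fosb fell from 19.7 ± 4.45 to 10.4 ± 1.82 CPM (-0.97, SE 0.18, 0.0063), Junb from 99.9 ± 51.8 to 34.1 ± 5.15 CPM (-1.01, SE 0.26, 0.041), and Nr3c1, the glucocorticoid receptor, from 218 ± 31.3 to 166 ± 13.4 CPM (-0.45, SE 0.10, 0.02), with control 24 apart from the other controls at 164 CPM. Creb1, the cyclic AMP response factor, differed by -0.03 (0.89), and Bdnf and its receptor Ntrk2 by 0.56 and -0.07 (0.24 and 0.59). The other AP-1 genes of the list, Jun and Jund, were not called (0.42 and 0.18, adjusted p = 0.16 and 0.49). The Junb groups overlap, control 09 at 39 CPM lying below BrapcKO 04 at 39.6 CPM, and its call was lost in 9 of 19 alternatives.

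**Figure D4:**
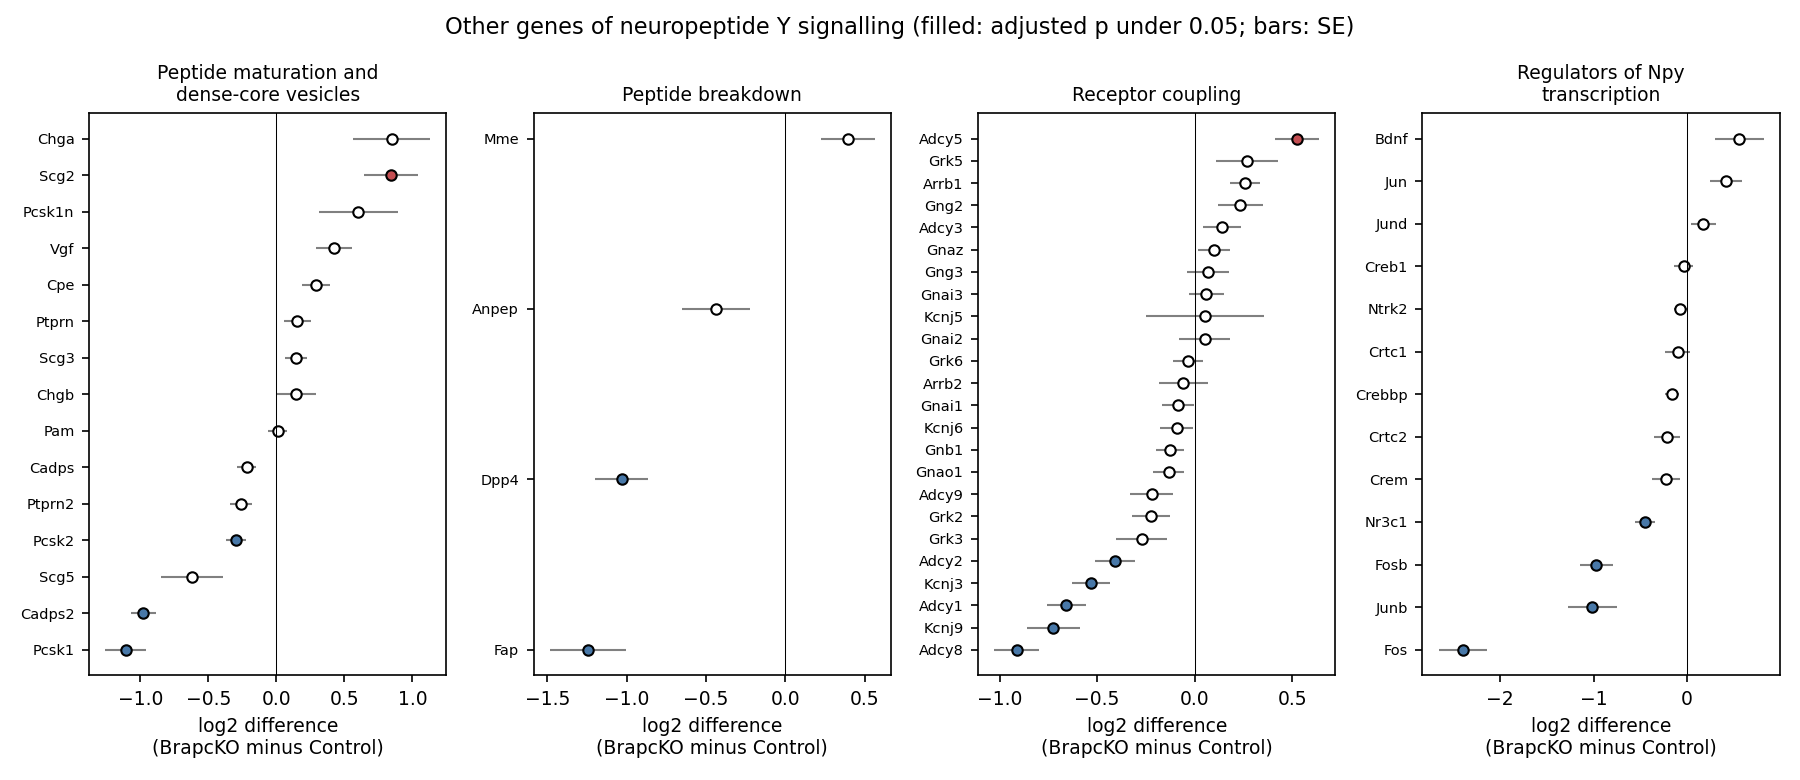
Log2 difference (BrapcKO minus control, points, with SE as bars) of the genes of the 4 pathway lists, grouped by role, each panel with its own scale; filled points passed an edgeR adjusted p of 0.05 and open points did not. Calls are 1 higher and 3 lower for maturation, 0 and 2 for breakdown, 1 and 5 for coupling and 0 and 4 for regulators, and Fos lies lowest at -2.40.

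The cells that make Npy were described by 15 markers of Npy-type interneurons. Of these, 2 rose and 3 fell (median log2 0.13), where 3.12% of all genes rose and 4.95% fell. The summed level of the markers was 1051 to 1148 CPM in controls and 957 to 1180 in BrapcKO, overlapping. Sst, the peptide of many of these cells, ranged over 72.9 to 125 CPM in controls, against 82.8 to 156 CPM in BrapcKO (log2 0.50, SE 0.13, adjusted p = 0.03, a call lost in 12 of 19 alternatives). Tacr1, the substance P receptor of the Sst and nitric oxide synthase cells, rose from 3.52 ± 0.172 to 8.92 ± 2.36 CPM (1.35, SE 0.20, 0.0017). Nos1, the synthase itself, and Chodl differed by 0.28 and 0.13 (0.34 and 0.79).

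Other markers of the same list went down. Lamp5, a marker of neurogliaform cells that some excitatory cells also express, fell from 104 ± 18.7 to 40.6 ± 9.74 CPM (-1.29, SE 0.18, adjusted p = 0.0013). A somatostatin-like peptide, cortistatin (Cort), fell from 2.70 ± 1.06 to 0.582 ± 0.0366 CPM (-2.07, SE 0.30, 0.0018). Its BrapcKO values, 0.538 to 0.622 CPM, lie at the lowest level that every gene analysed reached in at least 5 libraries. All controls were above that level, so Cort could be kept through the group where it is high. Satb1 was lower by the same test (-0.52, 0.048), a call lost in 15 of 19 alternatives, and Ndnf, of layer 1 cells, differed by -0.01 (0.97).

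Of 9 genes common to GABA neurons, 4 rose and 0 fell (median log2 0.54), where 3.12% of all genes rose and 4.95% fell. The summed level of the 9 genes did not overlap, at 1090 to 1198 CPM in controls and 1305 to 1898 in BrapcKO. Gad2, a GABA synthesis enzyme, stood at 222, 219, 266, 228 and 184 CPM in controls 08, 09, 22, 23 and 24, and at 418, 383, 537, 515 and 635 CPM in BrapcKO 04, 05, 06, 07 and 21. It rose (1.23, SE 0.13, adjusted p = 3e-04), and its 3 highest libraries are those of Npy. The same libraries were the highest of their group for Gad1 and for the excitatory marker Slc17a7, so this order is not particular to Gad2. Gad1 rose from 387 ± 27.3 to 557 ± 94.6 CPM (0.57, SE 0.11, 0.0077).

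Set against these genes, the separation of Npy depended on the reference. Npy per Sst was 0.41 to 0.533 in controls and 0.695 to 1.73 in BrapcKO, with no overlap. Npy per Gad1 was 0.0945 to 0.16 in controls and 0.15 to 0.398 in BrapcKO, and Npy per Gad2 was 0.17 to 0.3 and 0.176 to 0.403. Both of these ratios overlap between the groups, while the ratio to Sst does not. For Gad1 the overlap rests on control 24, at 0.16, and the other controls stood at 0.0945 to 0.115. For Gad2, BrapcKO 05 at 0.176 also lies below control 23 at 0.189.

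Markers of neighbouring regions were measured in the same libraries. Of 11 striatal genes, 6 rose and 0 fell (median log2 0.72), where 3.12% of all genes rose and 4.95% fell. The summed level of the 11 genes was 539 to 1196 CPM in controls and 940 to 1755 in BrapcKO. Penk rose from 118 ± 38 to 273 ± 103 CPM (1.48, SE 0.19, adjusted p = 0.0013). Rgs9, which also rose (1.04, 0.005), was lowest among BrapcKO libraries in 06, at 61.5 CPM, the library with the most Npy. Penk ran otherwise, at 175, 204, 242, 310 and 433 CPM in BrapcKO 04, 05, 06, 07 and 21. Libraries 06, 07 and 21, those with the most Npy, were the highest of their group for Penk, Drd1 and Ppp1r1b. For Rgs9, Pde10a and Isl1, which also rose, that order did not hold. Of 9 hypothalamic genes Agrp, Hcrt and Pmch are not among the genes analysed here, and of the 6 measured, 2 rose and 0 fell (summed 3.31 to 17.3 CPM in controls and 7.97 to 34.8 in BrapcKO). Gal, the peptide galanin, rose from 0.338 ± 0.288 to 4.08 ± 3.01 CPM (4.01, SE 0.73, 0.0073) and stood highest in BrapcKO 06 and 21, at 8.55 and 5.13 CPM. Its controls, at 0.102 to 0.797 CPM, lie near the 0.582 CPM that every gene analysed reached in at least 5 libraries. All BrapcKO libraries reached that level, so Gal could be kept through the group where it is high. Its call was lost with the filter of 1 CPM in 5 libraries. Of 8 hippocampal genes, 1 rose and 0 fell (summed 141 to 225 and 113 to 197 CPM). What part these regions have in the Npy and Npy1r differences was not tested.

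Of 11 markers of cortical excitatory neurons, the cells known to carry much of cortical Npy1r, 1 rose and 2 fell (median log2 -0.33), and the summed levels overlapped (1611 to 1907 and 1670 to 2123 CPM). Neurod6 fell from 76.6 ± 9.35 to 48.3 ± 9.98 CPM (-0.62, SE 0.15, adjusted p = 0.021). So did Rorb, of layer 4, from 139 ± 47.3 to 96.6 ± 27 CPM (-0.83, SE 0.15, 0.0067), while Slc17a7, the vesicular glutamate transporter, differed by 0.31 (0.19), with control 24 apart from its group at 1157 CPM. Of 9 markers of other interneuron types, 1 rose and 1 fell, with Vip at -0.45 (0.14) and Pvalb at -0.27 (0.43).

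Glial markers were described in the same way. Of 6 astrocyte genes 1 rose and 0 fell: Gfap, at 140.5 ± 14.3 and 667 ± 380 CPM (log2 2.05, SE 0.42, adjusted p = 0.02), highest in BrapcKO 05 (1228 CPM), the BrapcKO library with the least Npy. Among 5 microglial, 6 oligodendrocyte-lineage and 5 endothelial and mural genes edgeR called 0; their medians were 0.46, -0.03 and 0.04. Summed microglial genes were 165 to 223 CPM in controls and 220 to 567 in BrapcKO, where library 05 stood apart in Cx3cr1, P2ry12 and Csf1r, and summed oligodendrocyte genes 2579 to 3553 and 1923 to 2596. The part of cell composition in the results above was not tested.

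**Figure D5:**
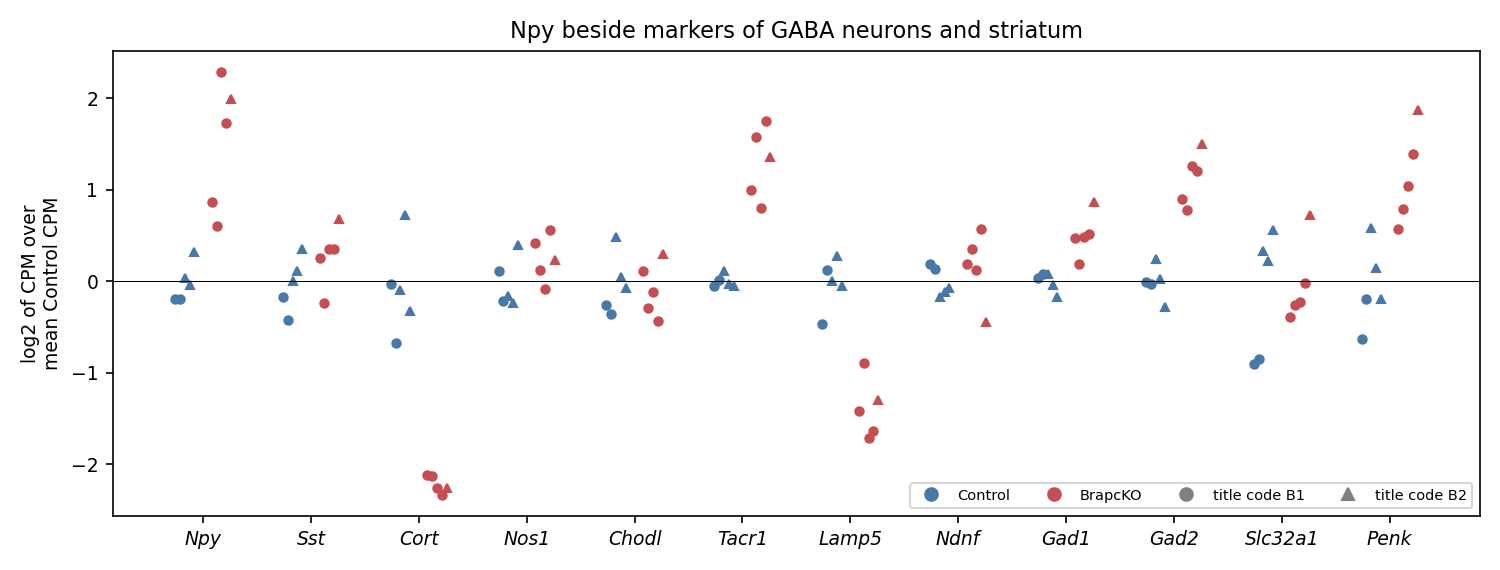
Level of Npy and of 11 markers of GABA neurons and striatum in each library, as log2 of CPM over the mean control CPM; points are libraries (circles B1, triangles B2), controls in blue and BrapcKO in red. Npy, Tacr1, Gad1 and Gad2 lie above all controls in all 5 BrapcKO libraries, Lamp5 and Cort below all controls, and Sst, Nos1, Chodl, Ndnf, Slc32a1 and Penk overlap.

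Some of these calls depended on single libraries. Of 40 list and marker genes called, all 40 lost the call with the flox/flox libraries alone, and 10 lost it in no other alternative: Pcsk1, Cadps2, Adcy1, Adcy8, Fos, Tacr1, Lamp5, Cort, Gad2 and Penk. For Cort this says little, since it could be kept through the group where it is high. Without BrapcKO 21, the only B2 library of its group, 24 were lost, among them Scg2, Fap, Kcnj3, Kcnj9, Fosb, Junb, Nr3c1, Gad1, Neurod6, Rorb and Gal. With the Y-linked score 24 were lost, without control 08 19 and without control 09 13, among the last Scg2, Adcy5, Nr3c1 and Gfap.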

How the data were processed

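Per the labels' protocols, RNA from frozen cortex was extracted with Trizol, treated with DNase and depleted of ribosomal RNA. The authors deposited raw read counts per gene, and the submitters' processing notes name Subread, featureCounts, DESeq2 and edgeR with mm10 and GRCm38; no source used here gives the strand setting or versions. Every gene had at least 0.582 CPM in at least 5 libraries, so scarce genes had been left out. Counts were tested in R 4.3.3 with edgeR 4.0.16 (quasi-likelihood, robust, TMM), with title code and group as terms over 10 libraries, and p-values were adjusted by Benjamini and Hochberg over 14276 genes. CPM use TMM-scaled totals, and SE is the log2 difference over the square root of F. Symbols and exon lengths come from GENCODE M21 (14271 of 14276 matched). Log2 CPM for correlations used a prior count of 0.5. No library was another library of its group sequenced again: chi-square over degrees of freedom was 7.16 to 96.4 between libraries of a group. A second library from the same animal is not excluded by this. The test was also run on simulated counts with known group differences and no title code difference. That run does not cover the title code differences of the real libraries, and its outcome is not given here.

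The members and gene lists were chosen with earlier results of these data known. The text names the members, every called gene of the 4 pathway lists with uncalled ones where a role needed them, and the 3 genes most like each member; neighbours within 500 kb and examples of cell markers were named outside that rule. Alternatives were DESeq2 1.42.0, limma-voom (limma 3.58.1), other scalings, a filter (13634 genes kept), other terms, subsets, other lengths and leaving out each library. Intervals are 95% and cover spread between libraries; reads without molecular identifiers are not independent molecules.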

Additional observations from a re-analysis of the deposited data

Results flagged for a closer look

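None of the 4 genes had a library standing apart from the rest of its group. The members and the measured genes of all lists, 151 genes, gave 302 groups of 5 libraries. In 26 of them 1 library had a gap to the others above Dixon's critical value of 0.71. Chance alone gives about 1 in 20 where the libraries of a group are alike, but both groups mix B1 and B2. BrapcKO 21, the only B2 library of its group, stood apart at 158 CPM for Pcsk1n, 359.9 for Cadps, 38.8 for Kcnj6, 87.2 for Adcy3, 76.1 for Jund, 101.5 for Slc32a1, 17.5 for Gpr6 and 16.8 CPM for Pdgfrb. Jund, an AP-1 gene, was at 20.7 to 22.5 CPM in the other BrapcKO libraries, and Slc32a1, the vesicular GABA transporter, at 47 to 60.8 CPM. B2 controls 22 to 24 stood at 79.3 to 97.6 CPM for Jund, against 15.7 to 16.1 CPM in B1 controls 08 and 09. For Kcnj6 the B2 controls stood at 33.9 to 40.1 CPM, against 60.8 to 72.1 CPM. Pcsk1n, Adcy3, Slc32a1 and Gpr6 were, like Jund, higher in each B2 control than in either B1 control. BrapcKO 21 thus lay near the B2 controls for Jund and Kcnj6, but below all controls for Cadps and Pdgfrb. BrapcKO 05, which had the least Npy of its group, stood apart at 149 CPM for Cx3cr1, 98.7 for P2ry12 and 275 for Csf1r, all microglial genes that were lower in the other BrapcKO libraries, and at 55.7 for Neurod2 and 2.36 CPM for Trh. BrapcKO 04 stood apart at 2.18 CPM for Kcnj5, BrapcKO 06 at 217 CPM for Mag, and BrapcKO 07 at 4.545 CPM for Emx1 and 8.75 CPM for Grp. Among controls, 08 stood apart at 5.9 CPM for Fap, against 3.39 to 3.76 in the others, and at 4.63 CPM for Lct, and the call of Fap was lost without it. Control 22 stood apart at 3.33 CPM for Oxt and 5.82 CPM for Trh. Control 24 stood apart at 164 CPM for Nr3c1 (220.1 to 239.8 in the others), 134 for Gnai2, 1157 for Slc17a7, 7.55 for Pomc and 134 CPM for Aqp4.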

How the results depend on the processing

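Npy, Npy1r and Npy5r kept their direction in all 19 alternatives, and Npy2r had a log2 difference of -0.45 with the flox/flox libraries alone. Genes called higher and lower, 446 and 706, were 709 higher with DESeq2, 261 and 356 with group as the only term, 97 and 244 with the Y-linked score, 113 and 303 in B1 alone and 4 and 0 with flox/flox libraries alone. Leaving out 1 library gave 117 to 617 higher and 289 to 880 lower, both lowest without BrapcKO 21. Calls among maturation genes (4) were 7 with DESeq2, 2 with the Y-linked score and 0 with flox/flox alone, and 2 to 7 without 1 library. Breakdown genes (2) gave 1 with group only, 1 with the Y-linked score, 1 in B1 alone and 0 with flox/flox alone, and 1 to 2 without 1 library. Coupling genes (6) gave 3, 3 and 0 with the Y-linked score, in B1 alone and with flox/flox alone, and 3 to 8 without 1 library. Regulators (4) gave 0 with flox/flox alone and 1 to 5 without 1 library. The title code difference of Npy1r was 0.0468 without control 08, and -0.0941 to 0.0468 without 1 library. With the longest transcript as length, Npy1r stood at 11.6 and 5.64 and Npy5r at 2.97 and 2.64 CPM per kb in controls and BrapcKO. By log2 CPM without removal of group and title code, 0, 0, 0 and 1 of the 3 genes most like Npy, Npy1r, Npy2r and Npy5r were shared, and by Spearman's rho 0, 0, 2 and 0. Subsets have fewer libraries; other causes were not tested. No paired analysis was possible because no title number occurs in both groups.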
